A study of Mus musculus with 8 samples.

Results

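A set of 10 enzymes that build serine, asparagine and proline or carry one-carbon units on folate in mitochondria was followed in mouse liver with and without HRD1. They are *Phgdh*, *Psat1*, *Psph*, *Shmt2*, *Mthfd2*, *Aldh1l2*, *Asns*, *Aldh18a1*, *Pycr1* and *Pck2*. The genes were listed by symbol, as amino acid synthesis and mitochondrial one-carbon genes of which many are known ATF4 targets, and they are 10 of the 23337 genes counted. All 10 were found in each of the 8 count files and all passed the filter on low counts. *Phgdh*, with 2 or 3 counts in each WT library, passed it only through libraries from liver without HRD1. The list was chosen by symbol with the genotype and feeding differences of these libraries known, and all of these differences are counted as used, so the levels and differences of these 10 genes are given as a description and without a p-value.

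Liver RNA was sequenced from C57BL/6 mice aged 12 weeks, in 4 groups of 2 libraries. WT mice and mice lacking hepatic HRD1, named *Hrd1*-/- in the labels and HRD1Alb here, were sampled either fasted or refed. The fast lasted overnight and refeeding lasted 4 h, and the sample labels carry the same fasting and refeeding text for all 8 libraries, so the group was taken from the treatment label. In HRD1Alb mice both *Hrd1* alleles are floxed and Cre is driven by the albumin promoter, which acts from early liver development in hepatocytes and their precursors; deletion in other liver cells was not measured here. The controls of the study's colony carry the floxed alleles without Cre. The labels do not say whether the 2 libraries of a group came from separate animals, and p-values then measure only the spread between these libraries.

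Serine is made from the glycolytic intermediate 3-phosphoglycerate in successive steps by PHGDH, PSAT1 and PSPH. In mitochondria SHMT2 takes a carbon from serine onto tetrahydrofolate, MTHFD2 oxidizes it, and formate or carbon dioxide leaves the pathway through MTHFD1L or ALDH1L2. The transcription factor ATF4, whose translation rises when eIF2α is phosphorylated by stress kinases such as PERK, is known to induce many of these genes. Adult liver is known to keep serine synthesis low when dietary protein is sufficient.

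The deleted gene was examined first. *Syvn1*, the symbol of HRD1 in the files, was at 111 and 99.8 normalized CPM (counts scaled to library size) in the WT fasted libraries and at 32.6 and 31.5 in the HRD1Alb fasted libraries. Refed WT libraries held 637 and 305 CPM, while the libraries labelled HRD1Alb refed held 453 (replicate 1) and 132 (replicate 2). Replicate 1 therefore lay between the WT libraries, against its label. The study itself reports that HRD1Alb liver had lost both HRD1 mRNA and protein. The log2 fold change was -1.72 ± 0.562 (SE) in fasted liver and -0.69 ± 0.547 in refed liver, and neither passed the test (adjusted p = 0.170 and 0.391, edgeR quasi-likelihood test). The exons that Cre removes are not named in the text used here, and counts per gene include any exon left in place. Each refed result below rests on the libraries as labelled, and for the genes on which the results turn the values without 1 of them are given.

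Total counts ranged from 40210576 to 49117080 per library, and 3 counts correspond to 0.0508 to 0.0788 CPM. The 2 libraries labelled HRD1Alb refed stood apart from each other, with a Spearman correlation of 0.955 against 0.990 to 0.995 within the other groups. Between them 3204 of 14328 tested genes were at least 2-fold apart, against 424 to 1141 in the other groups. Their ratio moved with gene length (rho = -0.584 over 14139 genes, against -0.111 to 0.0272 elsewhere). Summed markers of hepatocytes were at 104497 to 141290 CPM in WT and 61722 to 102830 CPM in HRD1Alb libraries, with no marker called in either state, and Y-linked *Ddx3y* exceeded *Xist* in all 8 libraries.

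Letters of an ATF4 element were looked for next. Of the 9 genes that could be searched, 3 hold the letters TGATGNAA just before their start. These letters are a form of the composite element to which ATF4 dimers are known to bind. Promoter windows of RefSeq (build GRCm38.p6, 250 bases before to 50 after the start) were matched for 9 of the 10 genes, and *Aldh1l2* was not matched. The motif was searched on both strands and found in *Asns*, *Pycr1* and *Pck2*, beside 4.51% of all 27025 genes and 3.97% of all 32851 windows. The matches are printed 5′ to 3′ on the strand of the gene with the motif in capitals, because the letters differ in each gene. *Asns* lies at chr6:7693210-7693262 on the minus strand (motif 23 to 16 bases before the start), *Pycr1* at chr11:120643814-120643881 on the minus strand (103 to 96 bases before) and *Pck2* at chr14:55540133-55540200 on the plus strand (103 to 96 bases before).
Asns: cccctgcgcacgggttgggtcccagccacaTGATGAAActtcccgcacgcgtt
Pycr1: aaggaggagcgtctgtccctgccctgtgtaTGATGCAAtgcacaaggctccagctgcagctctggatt
Pck2: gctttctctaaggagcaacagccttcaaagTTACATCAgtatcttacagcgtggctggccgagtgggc
In *Pck2* the motif is on the opposite strand, where it reads TGATGTAA. The match in *Pycr1* is the stricter TGATGCAA, which 0.895% of windows hold. A match describes letters, not binding, which was not measured.

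The serine synthesis genes came first in the pathway and included the largest genotype difference of the 10 genes. *Psat1* (chr19:15904678-15947337, minus strand, GRCm38), which encodes the aminotransferase of the second step, stood at 1.02 and 0.997 CPM in WT fasted liver and at 13.1 and 14.5 CPM in HRD1Alb fasted liver. After refeeding it was at 1.04 and 0.893 CPM in WT liver and at 65.0 and 29.0 CPM in the libraries labelled HRD1Alb. All 4 HRD1Alb libraries lay far above all 4 WT libraries, and WT liver held close to the same level in both states. The log2 fold change was 3.77 ± 0.401 in fasted liver (13.6-fold) and 5.60 ± 0.429 in refed liver (48.5-fold), which ranked 31 among the 14328 tested genes. Without replicate 1 or replicate 2 of the refed libraries labelled HRD1Alb, the refed value was 4.89 or 6.06.

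*Psph*, the phosphatase of the last step, showed another pattern. Its levels were 5.59 and 5.21 CPM in WT fasted liver and 5.53 and 5.21 CPM in HRD1Alb fasted liver, so the fasted groups overlapped. Refed WT libraries held 8.10 and 8.30 CPM and the refed libraries labelled HRD1Alb held 18.0 and 17.5 CPM. *Psph* (chr5:129765558-129787449, minus strand) was thus the gene with the closest values between these refed replicates. The refed log2 fold change was 1.12 ± 0.168 (2.17-fold). On the opposite strand *Cct6a* overlaps 452 bases of *Psph*, and whether counting used the strand is not given in the sources used here.

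*Phgdh*, the dehydrogenase of the first step, was close to the limit of detection throughout. Its counts were 3 and 3 in WT fasted liver, 15 and 8 in HRD1Alb fasted liver, 2 and 2 in WT refed liver, and 17 and 32 in the refed libraries labelled HRD1Alb. In CPM the highest of the 8 libraries reached 0.701. Both WT refed counts were under 3, the count taken as the floor. The ratio of summed counts, scaled by library size, was 9.19 in refed liver with an exact 95% interval of 3.37 to 35.1, and 2.93 in fasted liver with an interval of 1.16 to 8.80; these intervals cover counting error only.

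The mitochondrial one-carbon genes divided. *Shmt2*, the mitochondrial serine hydroxymethyltransferase, was by far the most abundant of the 10 genes and was not higher in HRD1Alb liver. It stood at 219 and 220 CPM in WT fasted, 157 and 163 in HRD1Alb fasted and 279 and 296 in WT refed liver. The refed libraries labelled HRD1Alb held 182 and 266 CPM. In both states the HRD1Alb libraries lay below the WT libraries, by a log2 fold change of -0.45 ± 0.200 in fasted and -0.36 ± 0.199 in refed liver. *Shmt2* was not called in either state by the main fit of all 8 libraries. It was called lower in refed liver with a correction for gene length, where 10.2% of all genes were. With only the fasted libraries in the fit it was called lower in fasted liver, where 6.32% of all genes were.

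*Mthfd2*, the mitochondrial methylenetetrahydrofolate dehydrogenase, was at 1.45 and 1.05 CPM in WT fasted liver and at 3.62 and 5.50 CPM in HRD1Alb fasted liver. It was at 1.85 and 1.26 CPM in WT refed liver and at 15.4 and 10.9 CPM in the refed libraries labelled HRD1Alb. The HRD1Alb groups did not overlap the WT groups in either state, and the differences were 1.87 ± 0.347 (3.66-fold) in fasted and 3.07 ± 0.353 (8.42-fold) in refed liver on the log2 scale. *Aldh1l2*, the mitochondrial formyltetrahydrofolate dehydrogenase, was at 0.524 and 0.438 CPM in WT fasted, 4.95 and 4.47 CPM in HRD1Alb fasted and 0.321 and 0.341 CPM in WT refed liver. The refed libraries labelled HRD1Alb held 4.49 and 1.69 CPM. Unlike *Psat1* and *Mthfd2*, *Aldh1l2* had its highest group mean in fasted HRD1Alb liver, but the fasted and refed HRD1Alb libraries overlapped. Its log2 change with refeeding in HRD1Alb liver was -0.07 without replicate 2 labelled HRD1Alb refed. Its log2 fold change was 3.28 ± 0.489 (9.74-fold) in fasted and 3.22 ± 0.506 (9.30-fold) in refed liver, and the refed value was 2.33 without replicate 1 labelled HRD1Alb and 3.75 without replicate 2. *D10Wsu102e* overlaps 1056 bases of *Aldh1l2* on the opposite strand.

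*Asns* (chr6:7675169-7693254, minus strand), which makes asparagine from aspartate and glutamine, stood at 4.99 and 2.24 CPM in WT fasted and at 16.3 and 16.1 CPM in HRD1Alb fasted liver. After refeeding it was at 3.60 and 3.23 CPM in WT liver and at 48.6 and 27.3 CPM in the libraries labelled HRD1Alb. The 2 WT fasted libraries were over 2-fold apart, and both were below every HRD1Alb library. The genotype difference was 2.17 ± 0.410 (4.49-fold) in fasted and 3.47 ± 0.429 (11.1-fold) in refed liver on the log2 scale.

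In proline synthesis, *Aldh18a1* encodes the enzyme that commits glutamate to the pathway and *Pycr1* one of the mitochondrial reductases that complete it. *Aldh18a1* was at 0.673 and 0.949 CPM in WT fasted, 4.48 and 5.41 CPM in HRD1Alb fasted and 1.28 and 0.893 CPM in WT refed liver. The refed libraries labelled HRD1Alb held 33.6 and 10.3 CPM, both above every other library. Its log2 fold change was 2.60 ± 0.567 (6.08-fold) in fasted and 4.33 ± 0.586 (20.1-fold) in refed liver, and the refed value was 3.23 without replicate 1 labelled HRD1Alb and 4.94 without replicate 2. *Pycr1* counts were 6 and 13 in WT fasted, 32 and 38 in HRD1Alb fasted, 11 and 11 in WT refed liver, and 86 and 9 in the refed libraries labelled HRD1Alb. The refed groups overlapped, since replicate 2 had fewer counts than either WT library. The refed log2 fold change of *Pycr1* was 1.57 ± 0.845, and it turned to -0.51 without replicate 1. In fasted liver it was 1.48 ± 0.867, with a ratio of summed counts of 2.82 (exact 95% interval 1.68 to 4.95, counting error only).

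*Pck2*, the mitochondrial phosphoenolpyruvate carboxykinase, had the smallest standard error relative to its genotype difference in both states. It was at 3.87 and 3.89 CPM in WT fasted, 26.8 and 29.1 CPM in HRD1Alb fasted, 4.17 and 3.86 CPM in WT refed liver, and 31.8 and 37.6 CPM in the refed libraries labelled HRD1Alb. All 4 HRD1Alb libraries lay far above the WT libraries, and the log2 difference between refed and fasted liver was 0.05 in WT and 0.31 in HRD1Alb mice. The log2 fold change was 2.85 ± 0.177 (7.21-fold) in fasted and 3.11 ± 0.179 (8.63-fold) in refed liver, and leaving out either refed library labelled HRD1Alb gave 2.98 to 3.22.

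**Figure D1:**
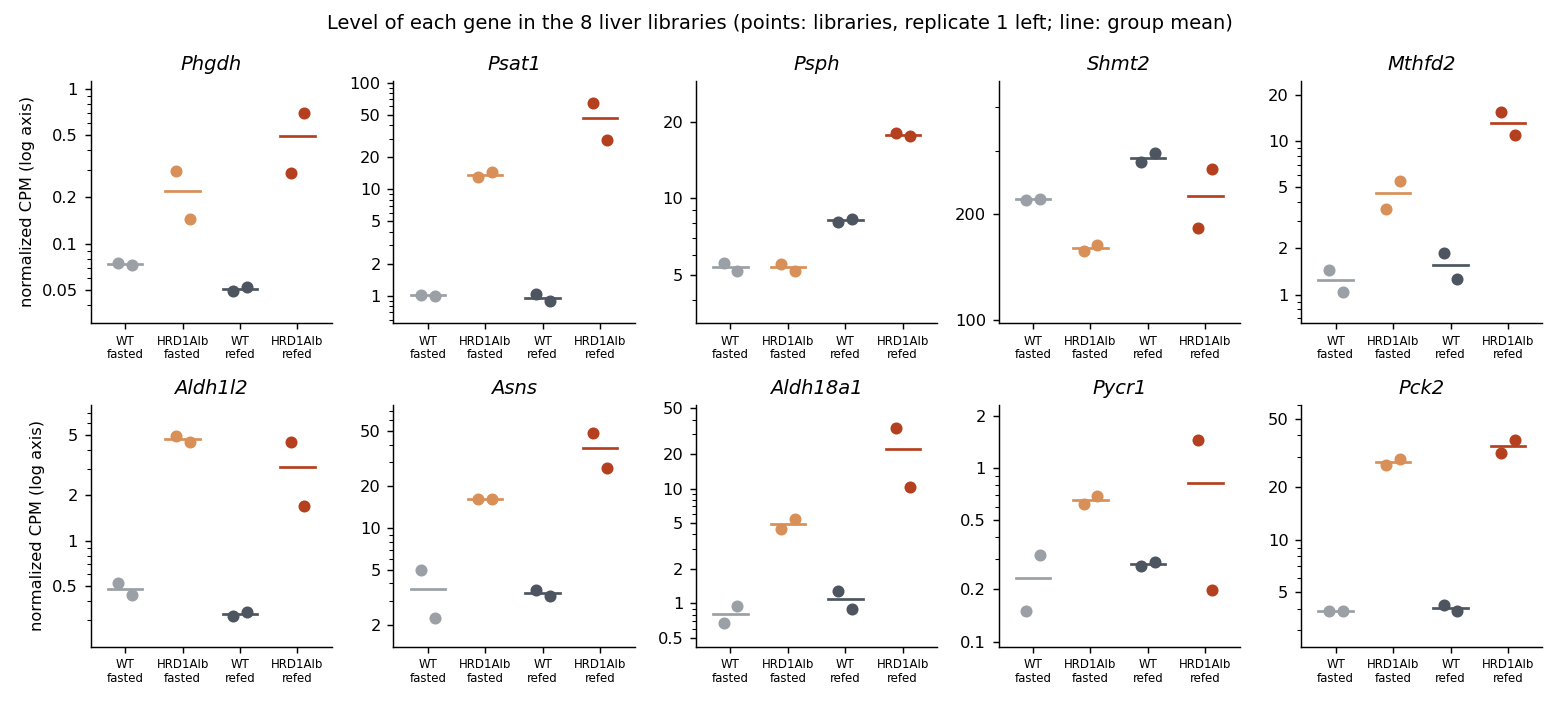
Normalized CPM of each of the 10 genes (log axis, own scale in each panel) in the 2 libraries of each group, with points for libraries and a line for the group mean. *Shmt2* is lower in the HRD1Alb groups, *Psph* separates only the refed genotypes, and for *Pycr1* replicate 2 labelled HRD1Alb refed lies among the WT libraries.

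In refed liver, 8 of the 10 genes were called higher at an adjusted p under 0.05 and none lower. Over all tested genes, 7.09% were called higher and 4.84% lower. The exceptions were *Shmt2* and *Pycr1*. *Phgdh* was called, but it passed the filter on low counts only through HRD1Alb libraries. In fasted liver 3 were called higher (*Pck2*, *Psat1* and *Aldh1l2*), and none lower, where 0.921% and 0.433% of all genes were. Since these contrasts were known when the genes were listed, nothing is read from these shares. The median log2 fold change of the 10 genes was 3.15 in refed and 2.02 in fasted liver, beside 0.04 and -0.02 over all tested genes. HRD1Alb and WT libraries did not overlap for 8 genes that were higher and 1 that was lower in each state, where 30.7% and 30.1% of all genes in refed and 30.6% and 34.2% in fasted liver were so placed.

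The refed calls depended on single libraries, most on each of the WT refed libraries, and on the spread shared across groups. Among fits without 1 library, the refed median of the 10 genes was lowest at 2.89 without replicate 1 labelled HRD1Alb refed. It was highest at 3.17 without WT refed replicate 1. With only the 4 refed libraries in the fit, 0 of the 10 genes and 0 of all genes were called, although 2934 genes had an unadjusted p under 0.05. Without replicate 1 labelled HRD1Alb refed, the refed log2 fold change was 3.71 for *Phgdh*, -0.51 for *Pycr1* and -0.12 for *Shmt2*. Without replicate 2 it was 2.43, 2.36 and -0.67 for the same genes. The calls in fasted liver also changed with the library left out. Over these fits the fasted value ran from 2.79 to 2.90 for *Pck2*, from 3.69 to 3.84 for *Psat1* and from -0.48 to -0.42 for *Shmt2*.

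**Figure D2:**
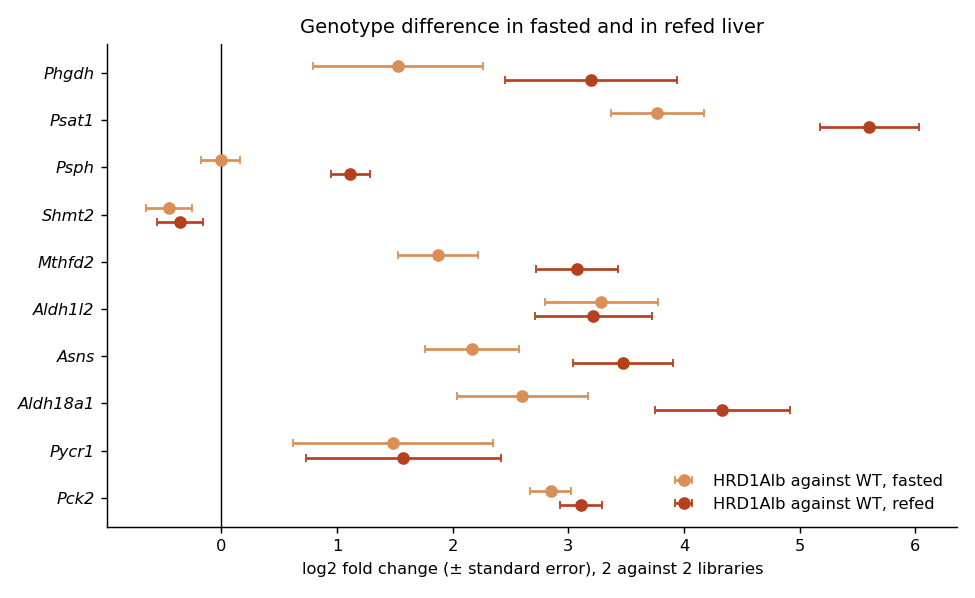
Log2 fold change of HRD1Alb against WT (± SE, 2 against 2 libraries) for each of the 10 genes in fasted and refed liver. *Psat1* has the highest value in both states, and *Shmt2* lies below 0 in both.

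Refeeding was compared next within each genotype. These contrasts too were known when the 10 genes were listed, so nothing is read from their calls or unadjusted p-values. In WT liver 0 of the 10 genes were called by edgeR's quasi-likelihood test, where 1.2% of all genes were called higher and 1.41% lower. One member had an unadjusted p under 0.05, DESeq2 called 1 higher (*Psph*) with 3.46% of all genes called higher and 4.12% lower, and limma-trend called 0. Refed and fasted WT libraries did not overlap for 2 genes that were higher and 2 that were lower after refeeding, where 30.8% and 29.6% of all genes were so placed. The WT log2 fold changes ran from -0.53 for *Aldh1l2* to 0.60 ± 0.169 for *Psph*. In HRD1Alb liver 4 of the 10 were called higher with refeeding and none lower, where 5.43% and 5.05% of all genes were. These were *Aldh18a1* (2.15 ± 0.518), *Psat1* (1.77 ± 0.350), *Psph* (1.73 ± 0.171) and *Mthfd2* (1.53 ± 0.327). Refed and fasted libraries did not overlap for 7 genes that were higher and 0 that were lower, beside 29.2% and 29.5% of all genes. The log2 fold changes of the 6 genes not called lay between -0.60 for *Aldh1l2* and 1.23 for *Asns*. The calls with refeeding in HRD1Alb liver, higher and lower, changed with the library left out. Over these fits the refeeding value ran from 1.68 to 1.77 for *Psph* and from 1.25 to 1.86 for *Mthfd2*. Without replicate 1 labelled HRD1Alb refed it was 1.06 for *Aldh18a1*, 1.07 for *Psat1*, -1.48 for *Aldh1l2* and -1.73 for *Pycr1*. Without replicate 2 it was 2.76, 2.24, -0.07 and 1.14 for the same genes.

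Whether the genotype difference itself changed with feeding was fitted as an interaction over all genes. These differences were also known when the 10 genes were listed, so nothing is read from their calls or unadjusted p-values. None of the 10 genes, and 0 of the 14328 tested genes, passed edgeR's quasi-likelihood test, although 3 of the 10 and 1209 of all genes had an unadjusted p under 0.05. DESeq2 called 1 of the 10 (*Psph*) and 49 genes higher and 46 lower in all, and limma-trend called 0. The interaction estimates were highest for *Psat1* (1.83 ± 0.539) and *Aldh18a1* (1.73 ± 0.775), and those of *Shmt2*, *Pycr1* and *Aldh1l2* were 0.09, 0.09 and -0.07. Without replicate 1 labelled HRD1Alb refed 2 members were called higher (*Psat1* and *Psph*), where 15.4% of all genes were. Without replicate 2, 2 were called higher (*Psat1* and *Aldh18a1*), where 0.458% of all genes were.

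Compared per kilobase of exon, the 10 genes formed a steep order. *Shmt2* led in every group, at 95.2 CPM per kb in WT fasted liver, and took 92.4% to 93.9% of the summed level in the 4 WT libraries. Its share was 73.1% and 72.5% in the HRD1Alb fasted libraries and 49.6% and 70.0% in the refed libraries labelled HRD1Alb. The other 9 genes together summed to 15.2 to 20.7 CPM in WT liver, 75.7 and 81.2 CPM in HRD1Alb fasted liver, and 219 and 135 CPM in the refed libraries labelled HRD1Alb. In WT liver the order below *Shmt2* ran *Psph*, *Asns*, *Pck2* and *Mthfd2*; *Pck2* and *Mthfd2* did not differ beyond their range in refed WT liver. In HRD1Alb fasted liver *Psat1* at 4.70 CPM per kb stood above *Psph* at 3.10. In the refed libraries labelled HRD1Alb *Asns*, *Psat1* and *Psph* followed *Shmt2*, with neighbouring ranges that overlapped. *Phgdh* was last in all groups but this one.

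Of the genes, *Pck2*, *Mthfd2*, *Aldh1l2* and *Shmt2* were each compared with a cytosolic paralog, and in each pair the level per kb of exon was set side by side. *Pck1*, the cytosolic phosphoenolpyruvate carboxykinase of gluconeogenesis, stood at 5523 and 4511 CPM in WT fasted and 3530 and 3672 CPM in HRD1Alb fasted liver. It fell to 578 and 640 CPM in WT refed liver and to 306 and 374 CPM in the refed libraries labelled HRD1Alb. *Pck2* took 0.0449% ± 0.00663 (SD, n = 2) of the pair in WT fasted and 5.55% ± 0.129 in refed HRD1Alb liver, with 0.445% and 0.380% in HRD1Alb fasted and WT refed liver. *Pck1* was lower in refed HRD1Alb than in WT liver (log2 fold change -0.84 ± 0.194, adjusted p = 0.0376, edgeR quasi-likelihood test).

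*Mthfd2* took 0.807% ± 0.288 of its pair with *Mthfd1*, the cytosolic trifunctional enzyme, in WT fasted and 0.836% ± 0.313 in WT refed liver. The share was 3.53% ± 1.44 and 9.24% ± 2.34 in the HRD1Alb groups. *Mthfd1* itself had log2 fold changes of -0.30 and -0.55 in fasted and refed liver and did not pass the test. *Aldh1l2* took 0.494% of its pair with cytosolic *Aldh1l1* in HRD1Alb fasted liver against 0.0317% in WT, and 0.297% ± 0.272 in refed HRD1Alb (0.489% and 0.104% in the 2 libraries) against 0.0210% in WT liver. The cytosolic gene was the more abundant by far in every library. *Shmt2* took a mean of 59.4% to 63.0% of its pair with *Shmt1* in the 4 groups, the pair with the most even share.

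**Figure D3:**
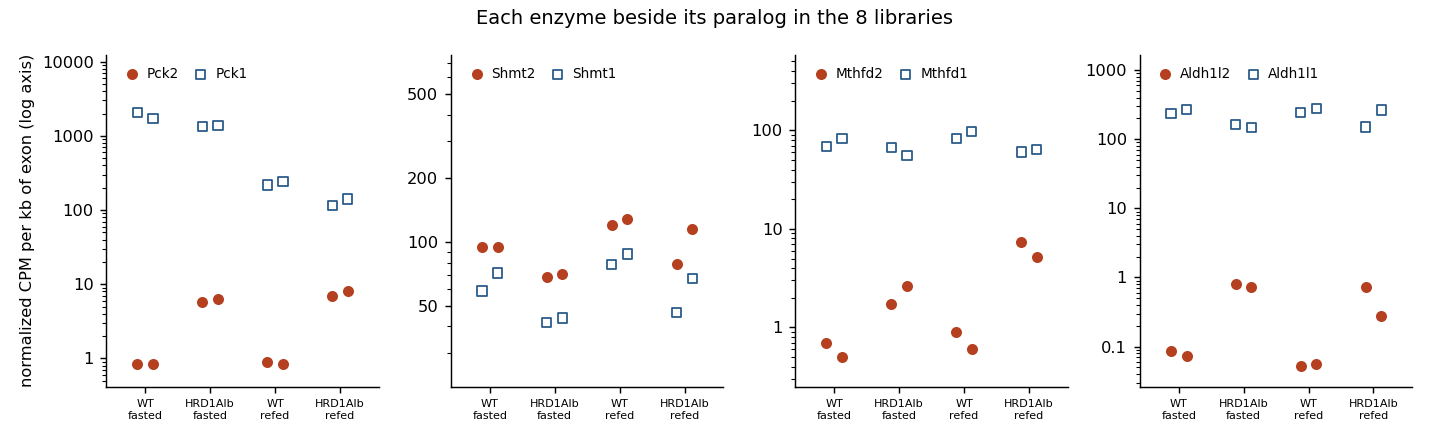
Normalized CPM per kb of exon (log axis, own scale in each panel) of each gene, filled circles, and its paralog, open squares, in the 2 libraries of each group. The paralog is the more abundant in every library and pair but *Shmt2* with *Shmt1*, where *Shmt2* takes 57.1% to 63.2% in the 8 libraries.

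Other genes of these pathways, from textbook lists without the 10 genes, were tested over all genes. The lists were also chosen with earlier results of these data known. Each p-value is for a single gene, and the counts and medians describe a list without testing it. Over all tested genes, 7.09% were called higher and 4.84% lower in refed liver, and 0.921% and 0.433% in fasted liver. Of 26 folate and methionine cycle genes, 2 rose and 2 fell in refed and 1 rose and 1 fell in fasted HRD1Alb liver, with medians of -0.04 and -0.18 on the log2 scale. *Mthfd1l*, which releases formate from the mitochondrial pathway of *Shmt2* and *Mthfd2*, was at 0.997 and 1.43 CPM in WT fasted and 4.42 and 5.54 CPM in HRD1Alb fasted liver. It was called in both states, at 2.03 ± 0.341 in fasted (adjusted p = 0.0452) and 1.71 ± 0.344 in refed liver (adjusted p = 0.0278, edgeR quasi-likelihood test). *Dmgdh*, the mitochondrial dimethylglycine dehydrogenase, fell by 0.97 in fasted (adjusted p = 0.0438) and by 0.86 in refed liver (adjusted p = 0.0225) on the log2 scale. In refed liver *Mthfsd* rose by 1.13 (adjusted p = 0.0268) and *Bhmt*, which remethylates homocysteine with betaine, fell by 1.53 (adjusted p = 0.0360).

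Among 15 genes that use serine or glycine, none rose and the same 2 fell in each state, with medians of -0.25 in refed and -0.38 in fasted liver. *Gldc*, the decarboxylase of the glycine cleavage system, was at 420 and 385 CPM in WT fasted and 190 and 181 CPM in HRD1Alb fasted liver. It fell by 1.12 in fasted (adjusted p = 0.0331) and by 1.24 in refed liver (adjusted p = 0.0109) on the log2 scale. *Srr*, serine racemase, fell by 1.20 (adjusted p = 0.0211) and by 0.80 (adjusted p = 0.0203).

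Of 18 further genes of glutamate, proline and aspartate metabolism, 1 rose (*Asrgl1*, an asparaginase, 1.04, adjusted p = 0.0198) and 1 fell (*Aspg*, by 1.10, adjusted p = 0.0477, edgeR quasi-likelihood test) in refed liver. None was called in fasted liver by this test, where 2 had an unadjusted p under 0.05. Of 13 genes of glycolysis and gluconeogenesis, none rose and 2 fell in refed liver, *Pck1* and *Pcx*, the pyruvate carboxylase (by 0.82, adjusted p = 0.0383). None was called in fasted liver, where 4 had an unadjusted p under 0.05. The medians of these 2 lists lay between -0.17 and -0.0049 on the log2 scale in both states.

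Of 19 genes of ATF4, its partners and its targets, 10 rose and none fell in refed liver, with a median log2 fold change of 1.77. In fasted liver 2 rose (*Fgf21* and *Ddit3*), with a median of 0.56. The study had already reported *Ddit3*, *Trib3* and *Fgf21* as raised in its RNA sequencing, so this list is not independent of these data. *Nupr1* (5.74, adjusted p = 0.00820), *Atf3* (5.16, adjusted p = 0.0152) and *Trib3* (4.47, adjusted p = 0.00895, edgeR quasi-likelihood test) had the largest refed values of the full fit beside *Slc7a11*, a cystine transporter subunit. *Slc7a11* had a count of 0 in all WT libraries and passed the filter on low counts only through HRD1Alb libraries. Against a floor of 3 counts per library, *Slc7a11* was at least 24.1-fold higher in refed liver, or at least 41.0-fold in replicate 1 and 7.17-fold in replicate 2 labelled HRD1Alb taken alone, and the list's median was the same with this bound. Without replicate 1 labelled HRD1Alb refed, *Nupr1* had 5.36, *Atf3* 4.34 and *Trib3* 3.41, which was then below *Ddit3* at 4.13. Of the refed values in the other lists, *Mthfd1l* had 1.33, *Mthfsd* 1.41, *Bhmt* -1.14, *Aspg* -0.74 and *Pcx* -0.64 in that fit, and 1.998, 0.78, -2.09, -1.61 and -1.04 without replicate 2. *Fgf21* rose by 1.97 and *Ddit3* by 1.30 in fasted liver (adjusted p = 0.0156 and 0.0395). *Atf4* itself had values of 0.18 in fasted and 0.69 in refed liver and did not pass the test (adjusted p = 0.716 and 0.0676). Over the 5 lists, 13 of 91 genes rose and 7 fell in refed liver, beside 7.09% and 4.84% of all genes. In fasted liver 3 rose and 3 fell, beside 0.921% and 0.433% of all genes.

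**Figure D4:**
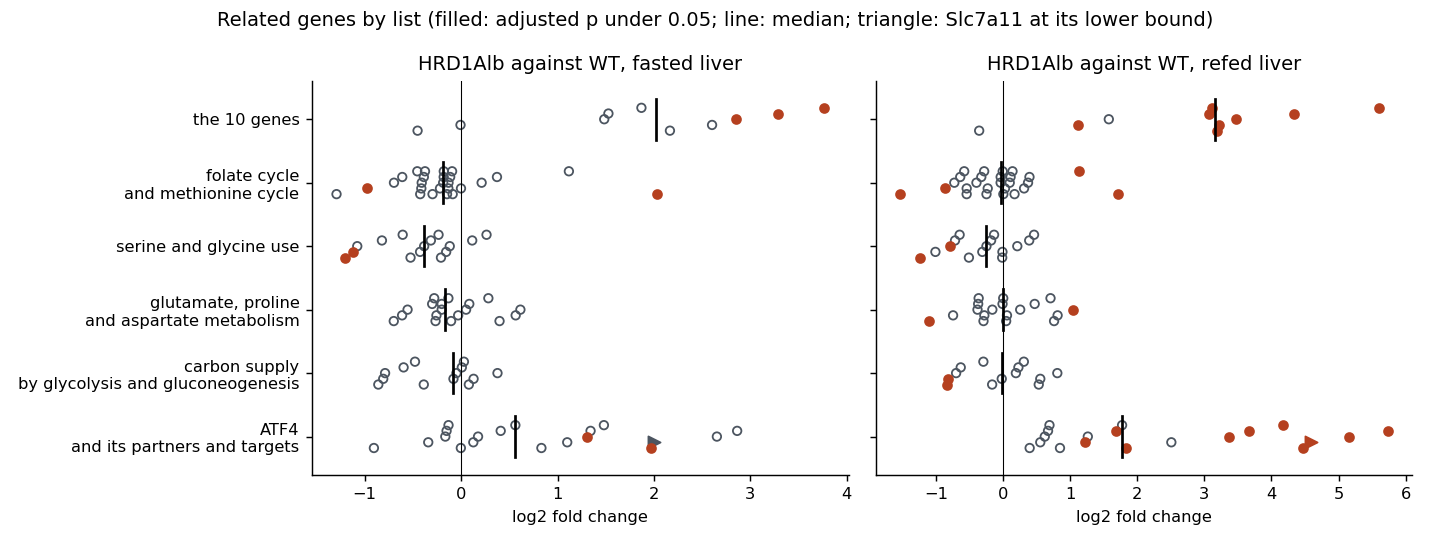
Log2 fold change of HRD1Alb against WT for the 10 genes and each of the 5 related lists, in fasted (left) and refed liver (right) on separate scales, filled where the adjusted p was under 0.05, with a line at the median. *Slc7a11* is drawn as a triangle at its lower bound, and the medians of the lists other than the ATF4 list lie between -0.38 and -0.0049.

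Markers of other cell types also differed between the genotypes. Summed Kupffer cell markers (4 of 5 listed were in the files) were at 44.2 to 54.0 CPM in WT and 110 to 244 CPM in HRD1Alb libraries, and stellate cell markers at 154 to 325 and 316 to 420 CPM. Markers of dividing cells were at 4.07 to 5.67 CPM in WT and 9.28 to 17.3 CPM in HRD1Alb libraries, and leukocyte markers (4 of 5) at 5.69 to 7.93 and 12.3 to 16.6 CPM. In refed liver 4 Kupffer, 2 stellate, 1 leukocyte and 2 dividing cell markers were called higher, and in fasted liver 1 Kupffer marker. No marker was at 0 in any group, and cholangiocyte and endothelial markers had no call in either state by edgeR's test. The part of these cells in the levels of the 10 genes was not tested. In bulk liver a change in the number of cells of a type and a change in RNA per cell cannot be told apart.

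The 10 genes were then set against the disagreement of the refed libraries labelled HRD1Alb. Of the 10, 5 were at least 2-fold apart between these replicates. *Pycr1* (7.38-fold), *Aldh18a1* (3.26-fold), *Aldh1l2* (2.66-fold) and *Psat1* (2.24-fold) were higher in replicate 1, and *Phgdh* (2.44-fold) was higher in replicate 2. The median log2 ratio of replicate 2 to replicate 1 went over 5 bins of exon length went from 0.71 in the shortest genes to -0.70 in the longest. Of the 10 genes, 7 lay below the median of their length bin, all but *Pck2*, *Phgdh* and *Shmt2*. With a correction for length in each library the same 8 members were called higher in refed liver, where 9.97% of all genes were. *Shmt2* was called lower, where 10.2% of all genes were. *Psat1* kept a log2 fold change of 5.54. *Psph* had 0.84 in that fit. In a comparison added after the data were seen, each was taken alone against both WT refed libraries, and replicate 1 was higher for 9 of the genes and replicate 2 for 8.

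**Figure D5:**
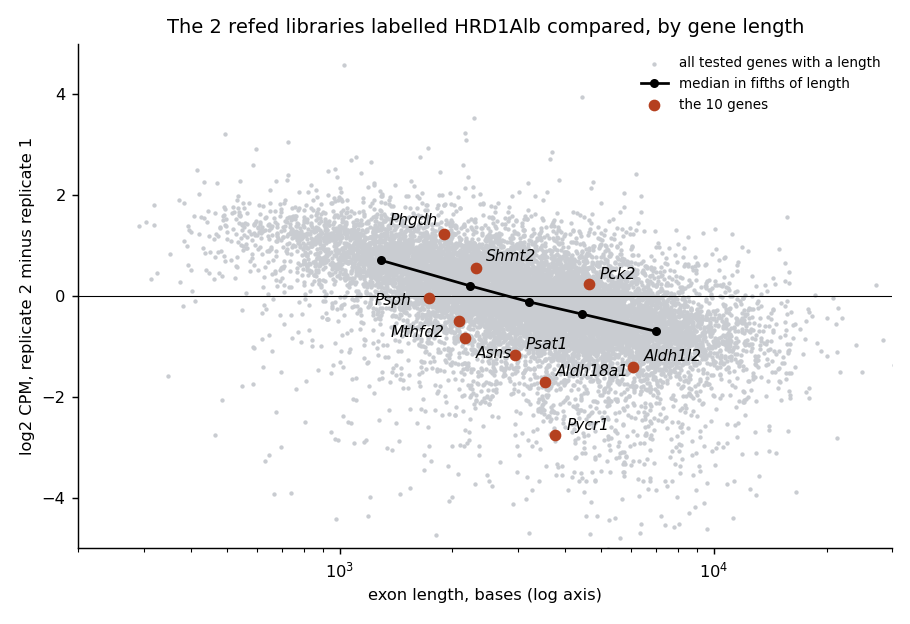
Log2 CPM of replicate 2 minus replicate 1 of the libraries labelled HRD1Alb refed against exon length (log axis) for 14139 tested genes in grey, with the 10 genes in red and medians of 5 length bins in black. The medians fall from 0.71 to -0.70, and *Pycr1* lies lowest of the 10 genes at -2.75.

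The genes most alike in profile were sought among the other tested genes with a mean of at least 1 CPM, by Pearson correlation with the mean standardized log2 CPM of the 10 genes over the 8 libraries. They were *Anxa2* (r = 0.996), *Gm19619* (0.992), *Hmox1* (0.991), *Trim30a* (0.983) and *Lysmd2* (0.981). The points share libraries and fall into 4 groups, so these values describe the likeness and carry no test. A correlation does not measure the size of a difference. *Anxa2* ran from 10.6 to 148 CPM over the 8 libraries, and *Trim30a* only from 5.46 to 7.89 CPM. Among the 10 genes themselves, the correlation with the mean of the other 9 was highest for *Aldh18a1* (0.983), *Mthfd2* (0.982), *Psat1* (0.980) and *Asns* (0.964), and it was -0.507 for *Shmt2*. *Psph* (0.638) and *Pycr1* (0.537) followed the others least among those with a positive value.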

How the data were processed

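The authors deposited counts per gene symbol as whole numbers, 1 table per library, without normalization. The study's methods name ERANGE for counting and limma for testing on an Illumina NextSeq 500, while the submitters' processing notes name cutadapt, STAR, HTSeq, DESeq2 and build mm10; the annotation and strand setting are not given in the sources used here. Here genes kept by filterByExpr (minimum count 10, minimum total 15; 14328 genes) were TMM-normalized and fitted with 1 quasi-likelihood model of 4 groups (edgeR 4.0.16, R 4.3.3), and p-values were adjusted by Benjamini-Hochberg over all tested genes. Fold changes carry standard errors from the F statistic. A permutation of 2 against 2 libraries cannot give a p below 0.333. CPM are TMM-normalized. Exon lengths and positions came from GENCODE M21 on GRCm38 by symbol, and promoters from RefSeq. Exact intervals and the floor of 3 counts cover counting error only. Statistical steps were tested on simulated data. Named genes were the 10 members, paralogs of 4 of them (a further planned pair is not reported here), up to 4 called genes per list and contrast, the 5 most alike in profile and *Syvn1*. The members and lists were chosen with earlier results of these data known. Alternatives were RLE scaling, DESeq2 1.42.0, limma-trend (limma 3.58.1), other filters, only the groups compared, a replicate block, a length correction and each library left out.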

Additional observations from a re-analysis of the deposited data

Results flagged for a closer look

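Among the related genes, 3 had genotype differences of opposite direction in fasted and refed liver, with every library of one genotype on the same side of the other in each state. Of all tested genes, 30.7% were higher and 30.1% lower without overlap in refed liver, and 30.6% and 34.2% in fasted liver. The share of all genes with opposite directions was not computed, so nothing is read from this count. *Chac1*, which degrades glutathione, had a log2 fold change of -0.90 in fasted liver, which did not pass the test, and rose by 1.83 in refed liver (adjusted p = 0.0390, edgeR quasi-likelihood test). *Atf5* had 0.67 in refed liver and -0.34 in fasted liver, and *Gart* had 0.14 and -0.13. The interaction of genotype with feeding did not pass edgeR's test for any of them (adjusted p = 0.544, 0.561 and 0.654), and the refed values rest on libraries of which replicate 1 went against its label in *Syvn1*. None of the 10 synthesis genes showed such a reversal.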

How the results depend on the processing

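The values below count genes called among the 10 members (members) and the 91 related genes (list genes), higher or lower. By DESeq2, 11 list genes were lower in refed liver; in fasted liver 6 members and 8 list genes were higher and 8 list genes lower; with refeeding in WT 1 member and 4 list genes were higher and 11 lower; with refeeding in HRD1Alb 16 list genes were higher; and 1 member and 6 list genes had a higher interaction. By limma-trend 5 members were higher in fasted liver, where 1.2% of all genes were. By the same method 2 list genes rose with refeeding in WT, where 1.32% of all genes did. With only the groups compared in the fit, 0 members and 0 list genes were called in either direction in refed liver or with refeeding in HRD1Alb. In fasted liver 6 members were higher and 1 (*Shmt2*) lower, with 8 list genes higher and 15 lower. With refeeding in WT 1 member and 5 list genes were higher and 13 list genes lower, where 6.78% and 7.26% of all genes were. Without the filter on low counts, 6 members and 5 list genes were higher in fasted liver, where 1.19% of all genes were. In that fit 1 list gene had a higher interaction, where 0.0111% of all genes did. With at least 10 counts in every library *Phgdh* and *Pycr1* dropped out and the median of the members in fasted liver was 2.41. With the length correction 1 member (*Shmt2*) and 17 list genes were lower in refed liver, and 6 members were higher and 6 list genes lower in fasted liver. In that fit 2 list genes were higher and 8 lower with refeeding in WT, and 12 list genes were lower with refeeding in HRD1Alb. Over all genes by DESeq2, 1703 (11.9%) rose and 1475 (10.3%) fell in refed and 632 (4.41%) and 462 (3.22%) in fasted liver. With the length correction these were 1409 (9.97%) and 1436 (10.2%), and 484 (3.42%) and 419 (2.96%). With only the groups compared they were 0 and 0, and 1152 (8.26%) and 881 (6.32%). Without division by length, *Pck2* took 0.0781%, 0.771%, 0.658% and 9.27% of its pair in WT fasted, HRD1Alb fasted, WT refed and HRD1Alb refed liver, and *Mthfd2* took 6.15% in the last. The stricter motif was in 1 promoter. Leaving out each library in turn, members called ranged from 0 to 8 higher and 0 to 1 lower in refed, 0 to 7 and 0 to 1 in fasted liver, 0 to 2 higher with refeeding in WT, 0 to 7 and 0 to 2 with refeeding in HRD1Alb, and 0 to 2 higher for the interaction, whose median ran from 0.73 to 1.27. List genes called ranged from 1 to 28 higher and 0 to 23 lower in refed, 0 to 12 and 0 to 21 in fasted liver, 0 to 12 and 0 to 14 with refeeding in WT, 1 to 33 and 1 to 15 with refeeding in HRD1Alb, and 0 to 19 and 0 to 2 for the interaction. Where a group keeps 1 library, it is assumed to vary like the others. The share of all genes called also changed widely with the library left out. These ranges of calls therefore do not set the members or list genes apart from all genes, and nothing is read from them. *Pycr1* turned direction without replicate 1 labelled HRD1Alb refed, to -0.51 for genotype in refed liver, not called, and to -1.73 for refeeding in HRD1Alb, called lower. The cause of these shifts was not tested. Depth limits *Phgdh*, which had 2 or 3 counts in each WT library.

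Libraries of different groups that share a replicate number deviated together only weakly (r = 0.0161 to 0.179 over 6 pairs), so the number is not taken as a pairing. Since all 6 values were positive and a group has 2 libraries, each library correlated better with those of its own number, a hint from the data and not from the design. With the replicate block, 7 members were higher in refed liver (without *Phgdh*) and 4 in fasted liver (with *Asns*). In that fit 3 were higher with refeeding in HRD1Alb, where 4.53% of all genes were. Over all genes 794 rose and 602 fell in refed and 82 and 37 in fasted liver, against 1016 and 693, and 132 and 62, without the block.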
